A study of Zea mays with 10 samples.

Results

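Aquaporins are membrane channels that carry water and, in some members, small neutral solutes. The genes described here were the rows of the RNA deep sequencing table whose gene name starts with PIP, TIP, NIP or SIP followed by a number. This rule took 29 of 109874 genes, of which 11 were PIP, 10 TIP, 5 NIP and 3 SIP genes. The samples were vegetative apices, the meristem with its youngest leaf primordia, dissected from 2-week-old maize seedlings. The *lbl1* samples, labelled LBL1 -/-, came from families segregating the *lbl1-rgd1* allele, which had been introgressed at least 3 times into the inbred B73. The wild-type samples, labelled WT, have B73 as their line. The *lbl1* plants therefore also carry sequence from the allele's donor around *lbl1* on chromosome 6. Whether they carry donor sequence elsewhere in the genome was not tested. LBL1 is required to make trans-acting siRNAs, and plants without it form radial, abaxialized leaves. The comparison asks how transcript levels of the water channels differ in such apices.

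The 4 subfamilies differ in the membrane they occupy. Plasma membrane intrinsic proteins (PIPs) form the main route of water across the plasma membrane, and tonoplast intrinsic proteins (TIPs) across the vacuolar membrane. Nodulin26-like intrinsic proteins (NIPs) include channels for boric acid, silicic acid and other metalloids. Small basic intrinsic proteins (SIPs) lie in the endoplasmic reticulum in *Arabidopsis*. Among the PIPs, maize PIP2 proteins are efficient water channels, whereas maize PIP1 proteins depend on an interaction with PIP2 proteins to reach the plasma membrane.

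For each genotype 2 samples were sequenced, and the deposited table gives 1 RPKM value per gene and genotype over both. RPKM corrects read numbers for the length of the transcript and the size of the library, and so allows levels to be compared between genes. These RPKM values carry no SD and allow no test across samples, and the results of the authors' own test in the table were not used. Whether a difference given here exceeds the spread between samples was therefore not tested. The number of reads per sample is likewise unknown here. A gene is called past 2-fold when its RPKM values differ at least 2-fold between the genotypes and average at least 1 over both. Such an average was reached by 28024 genes, and in the 26767 of them above 0 in both genotypes the ratio of *lbl1* to wild type had a median of 0.935. Ratios were computed from the deposited values with no further scaling. The *lbl1* transcript itself (GRMZM2G020187) was at 226 RPKM in *lbl1* and 301 RPKM in wild type, so its level does not by itself separate the genotypes. In bulk tissue, less RNA per cell cannot be told apart from fewer cells of the type that expresses the gene.

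A mean of at least 1 RPKM was reached by 17 aquaporin genes, namely 6 PIP, 5 TIP, 3 NIP and 3 SIP genes. The table's status entry, which records whether a locus reached the authors' minimum number of alignments, marks the same 17 genes as having reached it. Of these, 6 genes were more than 2-fold higher in *lbl1* (*PIP2-6*, *TIP3-1*, *TIP4-4*, *NIP2-3*, *NIP3-1* and *TIP2-3*), and 1 was more than 2-fold lower (*NIP1-1*). Over all genes with the same mean, 10.6% were past 2-fold higher in *lbl1* and 11.0% past 2-fold lower. The number of higher aquaporin genes cannot be read against this share as it stands, because *NIP2-3*, *TIP2-3*, *TIP3-1* and *TIP4-4* were below 1 RPKM in wild type and entered only through their level in *lbl1*. The remaining 10 genes had ratios between 0.502 and 1.33, with 7 higher and 3 lower in *lbl1*. Over all genes with the same mean, past 2-fold or not, 43.2% were higher in *lbl1*.

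The level of a gene bears on how far its ratio strays. Among the 15278 genes with a mean of at least 10 RPKM, 5.9% were past 2-fold higher in *lbl1* and 5.52% past 2-fold lower, and the 9 aquaporin genes at this level included 1 of each. Among the 12746 genes with a mean from 1 to under 10 RPKM, the shares were 16.2% higher and 17.6% lower. Of the 8 aquaporin genes at this lower level, 5 were past 2-fold higher and none was lower, 4 of the 5 being those that entered through *lbl1* alone.

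**Figure D1:**
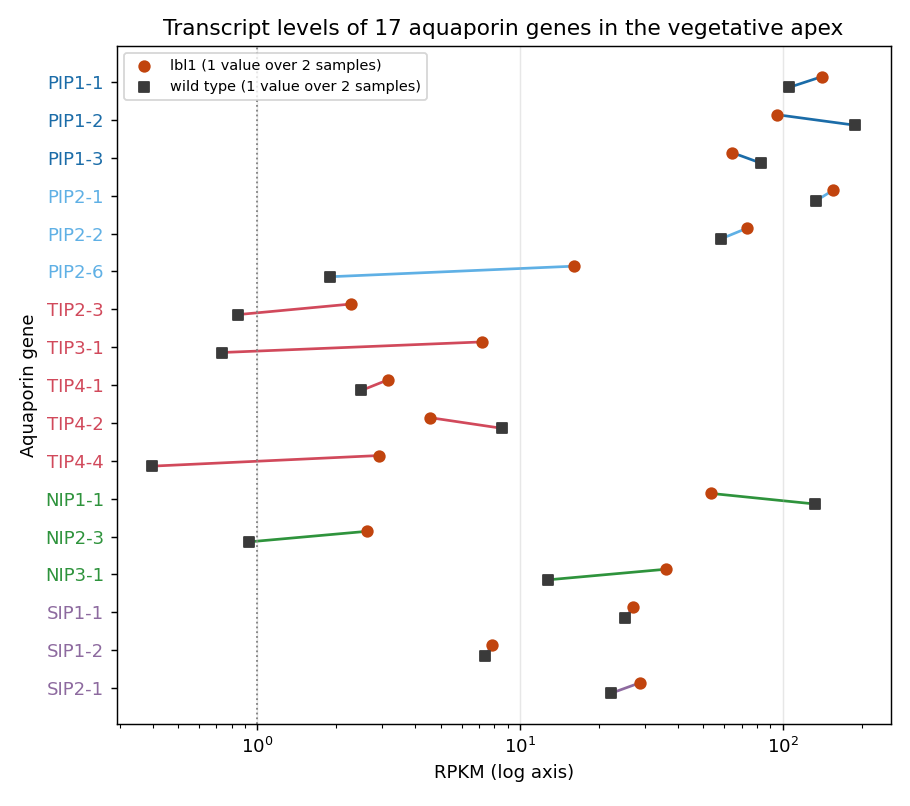
RPKM of the 17 aquaporin genes with a mean of at least 1 RPKM, on a log axis, with *lbl1* as circles and wild type as squares, each 1 value over 2 samples and so without error bars; the dotted line marks 1 RPKM. The symbols lie close together for the SIP genes and for *PIP2-1*, and are farthest apart for *TIP3-1*, *PIP2-6* and *TIP4-4*, all higher in *lbl1*.

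Among the 29 genes, the PIP genes carried most of the transcript. Their RPKM values summed to 546 in *lbl1* and 572 in wild type, which is 75.6% and 72.7% of the sum over all 29 genes. The most abundant gene was *PIP2-1* in *lbl1* and *PIP1-2* in wild type. The 6 genes at 50 RPKM or more were the same in both genotypes, namely *PIP1-1*, *PIP1-2*, *PIP1-3*, *PIP2-1*, *PIP2-2* and *NIP1-1*. Together they made up 80.5% of the RPKM summed over the 29 genes in *lbl1* and 89.3% in wild type.

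*PIP1-2* (AC209208.3_FG002, chromosome 5, 193306422 to 193309271 on B73 RefGen_v2) was at 94.97 RPKM in *lbl1* and 189 RPKM in wild type. This 1.99-fold lower level narrowly misses the 2-fold criterion, and it lay below the 5th percentile of the log2 ratios of genes with a mean from 100 to 200 RPKM. *PIP1-1* (GRMZM2G174807, chromosome 2, 18133344 to 18135367) went the other way, with 141 RPKM in *lbl1* and 106 RPKM in wild type, a ratio of 1.33. *PIP1-3* (GRMZM2G392975, chromosome 4, 153627243 to 153631088) was at 64.2 RPKM in *lbl1* and 82.8 RPKM in wild type, a ratio of 0.775. A later maize annotation lists PIP1-3 and PIP1-4 as names of this same gene. The order of the 3 genes thus differed, with *PIP1-1* highest in *lbl1* and *PIP1-2* highest in wild type. The other PIP1 genes were barely represented, *PIP1-5* with 0.0646 and 0.0246 RPKM and *PIP1-6* with 0 and 0.022 RPKM in *lbl1* and wild type.

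Within the PIP2 genes, the abundant members were close between the genotypes. *PIP2-1* (GRMZM2G014914, chromosome 7, 41420177 to 41423983) was at 155 RPKM in *lbl1* and 134 RPKM in wild type, a ratio of 1.16. *PIP2-2* (GRMZM2G092125, chromosome 2, 168551300 to 168554811) was at 73.1 RPKM in *lbl1* and 58.3 RPKM in wild type, a ratio of 1.25. Both ratios lie well inside the range of genes of like level. *PIP2-6* (GRMZM2G047368, chromosome 7, 41539130 to 41540625) differed most in this subfamily, with 16.1 RPKM in *lbl1* and 1.89 RPKM in wild type. Its 8.54-fold higher level lay above the 95th percentile of genes with a mean from 5 to 10 RPKM. *PIP2-6* nevertheless remained a minor member, as *PIP2-1* exceeded it 9.63-fold in *lbl1* and 70.8-fold in wild type.

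The remaining PIP2 genes were low. *PIP2-4* was listed at 1.44 RPKM in *lbl1* and at 0 in wild type, so that no fold can be given, and its mean stayed below 1 RPKM. *PIP2-3* was listed at 0 in *lbl1* and at 0.0118 RPKM in wild type. *PIP2-5*, which is known from maize roots, was listed at 0 in both genotypes.

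The PIP1 and PIP2 sums differed in opposite directions. The summed RPKM of the 5 PIP1 genes was 300 in *lbl1* and 378 in wild type, a ratio of 0.793. That of the 6 PIP2 genes was 246 in *lbl1* and 194 in wild type, a ratio of 1.27. PIP1 transcripts accordingly outnumbered PIP2 transcripts 1.22-fold in *lbl1* and 1.95-fold in wild type on the RPKM scale. The PIP1 difference rests on *PIP1-2*. Without it, the PIP1 sum was 205 RPKM in *lbl1* and 189 RPKM in wild type, a ratio of 1.09. Without *PIP2-6*, the PIP2 sum kept a ratio of 1.197, with 230 RPKM in *lbl1* and 192 RPKM in wild type.

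**Figure D2:**
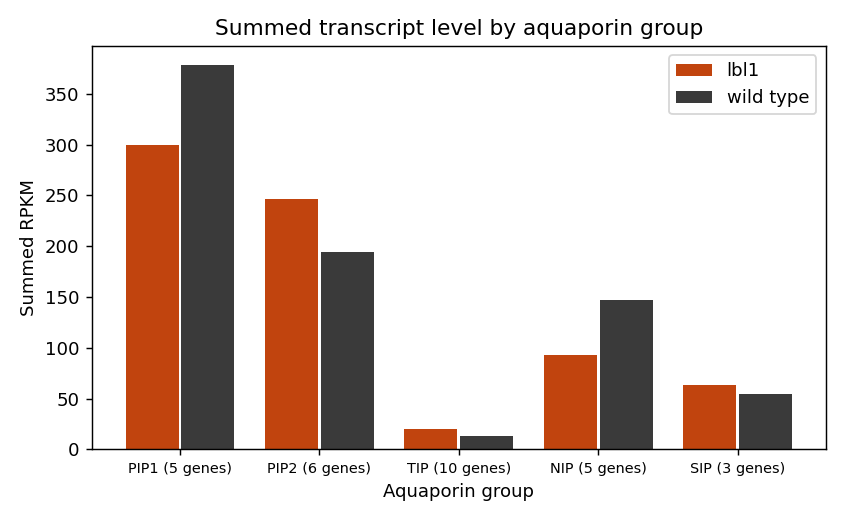
Summed RPKM of the PIP1, PIP2, TIP, NIP and SIP genes, with *lbl1* as the left and wild type as the right bar of each group; each bar adds 1 value per gene and has no error. The PIP1 and NIP sums are lower in *lbl1* (300 against 378 and 92.5 against 147) and the others higher. The TIP sums, which leave out *TIP1-1* and *TIP5-1*, are the smallest in both genotypes.

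The largest ratio among the 29 genes was that of a TIP gene, *TIP3-1*, though all 10 TIP genes were below 10 RPKM in both genotypes. The 10 TIP genes together reached 20.5 RPKM in *lbl1* and 13.1 RPKM in wild type, or 2.83% and 1.66% of the sum over the 29 genes. TIP1-1 and TIP5-1, names that the later annotation pairs with no identifier of the table, were not analysed here, so these sums do not cover every maize TIP gene. *TIP3-1* (GRMZM2G305446, chromosome 5, 25510983 to 25512470) belongs to a class that marks the membrane of protein storage vacuoles in seeds. *TIP3-1* was at 7.19 RPKM in *lbl1* and 0.733 RPKM in wild type, which is 9.81-fold higher. Its locus overlaps that of 1 other gene, which was listed at 0 in both genotypes. *TIP3-2* was listed at 0 in both genotypes. Without *TIP3-1*, the TIP sum was 13.3 RPKM in *lbl1* and 12.3 RPKM in wild type, a ratio of 1.07 in place of 1.56.

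*TIP4-4* (GRMZM2G093090, chromosome 3, 1847906 to 1849027) was at 2.90 RPKM in *lbl1* and 0.398 RPKM in wild type, a ratio of 7.30. *TIP2-3* (GRMZM2G125023, chromosome 10, 139122197 to 139125216), whose class conducts ammonia in *Arabidopsis*, was at 2.28 RPKM in *lbl1* and 0.842 RPKM in wild type, a ratio of 2.70. For *TIP3-1* and *TIP4-4* the log2 ratio exceeded the 95th percentile of genes of like level, whereas that of *TIP2-3* did not. All 3 folds rest on wild-type values below 1 RPKM, and all 3 genes entered only through their level in *lbl1*. Their place among genes of like level is therefore a description and lends no support to a difference. The percentiles leave out genes listed at 0 in 1 genotype, keeping 3052 of the 3476 genes with a mean from 1 to 2 RPKM. *TIP4-4* exceeded its percentile narrowly, with a log2 ratio of 2.87 against 2.65. Its place among all 3476 genes was not tested.

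The other TIP4 genes did not share the high ratio of *TIP4-4*. *TIP4-2* (GRMZM2G108273, chromosome 8, 110710705 to 110713118), the most abundant of the 10 TIP genes in wild type, was at 4.56 RPKM in *lbl1* and 8.54 RPKM in wild type, 1.87-fold lower. *TIP4-1* (GRMZM2G103945, chromosome 6, 133353266 to 133355581) was at 3.15 RPKM in *lbl1* and 2.50 RPKM in wild type, a ratio of 1.26. It lies 116 Mb past *lbl1* on the chromosome that holds the introgressed allele. *TIP1-2* was listed at 0.319 and 0.0673 RPKM and *TIP2-1* at 0.0559 and 0 RPKM in *lbl1* and wild type, while *TIP2-2* and *TIP4-3* were listed at 0 in both.

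The NIP genes contained the only member that was past 2-fold lower in *lbl1*. *NIP1-1* (GRMZM2G041980, chromosome 5, 148304653 to 148307020), whose *Arabidopsis* namesake conducts arsenite, was at 53.5 RPKM in *lbl1* and 133 RPKM in wild type. This is 2.49-fold lower and below the 5th percentile of genes with a mean from 50 to 100 RPKM. *NIP3-1* (GRMZM2G176209, chromosome 1, 223842177 to 223846120) encodes the boron channel known in maize as TASSEL-LESS1, needed for growth of the shoot and inflorescence when boron is scarce. It was at 36.1 RPKM in *lbl1* and 12.9 RPKM in wild type. Its 2.81-fold higher level lay above the 95th percentile of genes with a mean from 20 to 50 RPKM. The locus of *NIP3-1* overlaps that of GRMZM5G861292, which was listed at 0 in *lbl1* and at 1.30 RPKM in wild type.

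Accordingly, *NIP1-1* made up 57.8% of the summed NIP level in *lbl1* and 90.4% in wild type, and *NIP3-1* 39.1% and 8.72%. The NIP sum was 92.5 RPKM in *lbl1* and 147 RPKM in wild type, a ratio of 0.628. Without *NIP1-1*, it was 39.0 RPKM in *lbl1* and 14.1 RPKM in wild type. The median log2 ratio of the 3 NIP genes, 1.49, therefore has the opposite sign to the change of their sum.

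The NIP2 genes include the silicon channels of grasses. *NIP2-3* (GRMZM2G081239, chromosome 9, 4503953 to 4507642), also named Lsi6, was at 2.62 RPKM in *lbl1* and 0.928 RPKM in wild type. The 2.83-fold difference was inside the central 90% of genes with a mean from 1 to 2 RPKM. *NIP2-1*, also named Lsi1 after the rice channel for silicon uptake by roots, was at 0.166 RPKM in *lbl1* and 0.198 RPKM in wild type. *NIP2-2* was at 0.0616 RPKM in *lbl1* and 0.108 RPKM in wild type. It lies on chromosome 6, 95.8 Mb past *lbl1*. The locus of *NIP2-2* overlaps that of GRMZM2G137147, which was listed at 2.06 RPKM in *lbl1* and at 0 in wild type.

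The ratios of the SIP genes varied least. *SIP1-1* (GRMZM2G113470, chromosome 4, 9889419 to 9895586) was at 27.1 RPKM in *lbl1* and 25.2 RPKM in wild type, and *SIP1-2* (GRMZM2G060922, chromosome 8, 107289006 to 107293878) at 7.86 and 7.38 RPKM. *SIP2-1* (GRMZM2G175038, chromosome 1, 52196243 to 52198818) was at 28.7 RPKM in *lbl1* and 22.2 RPKM in wild type. The 3 ratios, 1.07, 1.06 and 1.29, were all slightly above the median gene. In both genotypes the SIP genes together exceeded the 10 TIP genes, with 63.6 RPKM against 20.5 RPKM in *lbl1* and 54.8 RPKM against 13.1 RPKM in wild type.

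**Figure D3:**
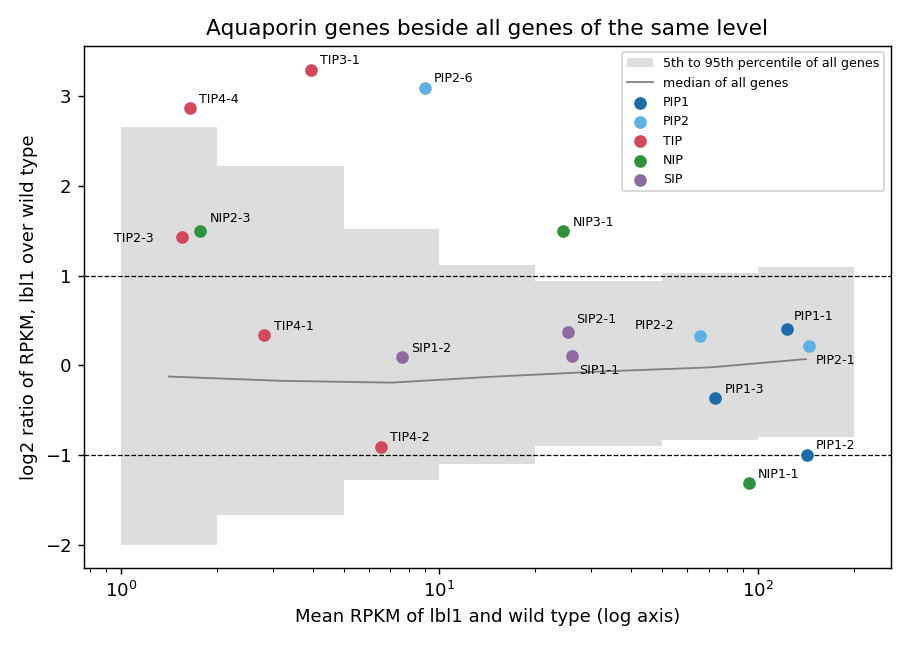
The log2 ratio of RPKM (*lbl1* over wild type) of the 17 aquaporin genes against their mean RPKM on a log axis, coloured by group; grey blocks span the 5th to 95th percentile and the grey line the median of all genes of that level with a value above 0 in both genotypes, and dashed lines mark 2-fold. Of the 17 genes, *TIP3-1*, *TIP4-4*, *PIP2-6* and *NIP3-1* lie above the grey blocks, *NIP1-1* and *PIP1-2* below them, and 11 inside. Of these, *TIP3-1*, *TIP4-4*, *TIP2-3* and *NIP2-3* reached the mean only through *lbl1*.

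Among genes with a mean of at least 1 RPKM, the median log2 ratio was −0.37 for 3 PIP1, 0.33 for 3 PIP2, 1.44 for 5 TIP, 1.49 for 3 NIP and 0.10 for 3 SIP genes, against −0.10 for all such genes of the table. The PIP1, TIP and NIP medians depend on the filter. With 1 RPKM required in both genotypes, the TIP and NIP medians were −0.28 and 0.09. With no filter on low values the NIP median was −0.26 and the PIP1 median 0.0207. Summed over the 29 genes, the levels nearly balanced, at 723 RPKM in *lbl1* and 787 RPKM in wild type, a ratio of 0.918. *TIP1-1* and *TIP5-1* are not in this sum. In all, 13 of the 17 genes were higher in *lbl1*, and 43.2% of all genes with a mean of at least 1 RPKM were. The count of 13 cannot be read against this share as it stands, because it includes the 4 that entered through *lbl1* alone. The 3 genes lowest relative to wild type, *NIP1-1*, *PIP1-2* and *TIP4-2*, were each the most abundant member of their group in wild type. The wild-type level is also the denominator of the ratio, so a high wild-type value by itself lowers the ratio. The most abundant PIP2 and SIP genes of wild type, *PIP2-1* and *SIP1-1*, had ratios of 1.16 and 1.07.

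Water flow through aquaporins follows solute gradients that proton pumps energise. Of 6 proton pump genes found by name, 5 had a mean of at least 1 RPKM, and 1 of these was past 2-fold higher in *lbl1* and none lower, against 10.6% higher and 11.0% lower over all genes, so that this count is no result about the list. *mha4*, a plasma membrane proton ATPase, was at 20.7 RPKM in *lbl1* and 6.17 RPKM in wild type, 3.36-fold higher, and *mha2* was at 18.5 and 10.4 RPKM. The vacuolar pyrophosphatase gene *vpp2* was at 277 RPKM in *lbl1* and 148 RPKM in wild type, a ratio of 1.87, while *vpp1* and *vpp3* had ratios of 1.14 and 1.195. The median log2 ratio of the 5 genes was 0.83.

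Several aquaporin genes respond to drought and abscisic acid in maize, so genes linked by name to dehydration or abscisic acid were set beside them. The list is not limited to genes of that response, as it includes *VP14*, a gene of abscisic acid synthesis. Its median is therefore not a measure of the response. Of 13 genes found by name, 8 had a mean of at least 1 RPKM, with 1 past 2-fold higher in *lbl1*, none lower (10.6% and 11.0% over all genes) and a median log2 ratio of 0.24. The higher gene was *DHN1*, a dehydrin, at 4.99 RPKM in *lbl1* and 0.936 RPKM in wild type, which reached the mean only through *lbl1*. The sum of the list was lower in *lbl1*, with 5094 RPKM against 7128 RPKM in wild type, and was dominated by *RAB15*, at 4845 RPKM in *lbl1* and 6802 RPKM in wild type. Another dehydrin, *dhn2*, was at 149 RPKM in *lbl1* and 240 RPKM in wild type, a ratio of 0.621. *VP14*, which encodes the enzyme that commits carotenoids to abscisic acid, was at 2.75 and 1.95 RPKM.

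Markers of the tissue were set beside these values. All 8 shoot meristem markers found by name, *KNOTTED1* and related homeobox genes, were at 1 RPKM or more on average. Their ratios of *lbl1* to wild type ran from 1.10 to 2.01, and their sum was 279 RPKM in *lbl1* and 174 RPKM in wild type. Over all genes with such a mean, 43.2% were higher in *lbl1*. Only *LG3*, at 51.3 RPKM in *lbl1* and 25.6 RPKM in wild type, was past 2-fold higher. None was past 2-fold lower. With 10.6% higher and 11.0% lower over all genes, this count is no result about the list. The 5 leaf primordium markers went both ways. Of these, 1 was past 2-fold lower and none higher, against 11.0% lower and 10.6% higher over all genes, which is no result about the list. *ns1* was past 2-fold lower, at 0.38 RPKM in *lbl1* and 2.67 RPKM in wild type, and *rld1* was at 64.7 RPKM in *lbl1* and 117 RPKM in wild type, whereas *yab9* was at 21.4 RPKM in *lbl1* and 10.9 RPKM in wild type and *yab14* had a ratio of 1.00. Their sum was 150 RPKM in *lbl1* and 201 RPKM in wild type, but 85.5 RPKM in *lbl1* and 84.5 RPKM in wild type without *rld1*. Of 16 markers of photosynthetic leaf, 13 reached a mean of 1 RPKM, 5 of them past 2-fold higher and none lower, against 10.6% higher and 11.0% lower over all genes. Of those 5, *Ppdk1* (GRMZM2G306345) was at 62.2 RPKM in *lbl1* and 0.441 RPKM in wild type, and *Lhcb6-1* had a ratio of 2.61. Both reached the mean only through *lbl1*. The rest of the 5 were above 1 RPKM in both genotypes. These were *PPDK1* (GRMZM2G097457), *Lhcb4\*1* (GRMZM2G033885) and *ME1* (GRMZM2G085019), with ratios of 4.67, 2.26 and 2.099. The list also held 5 other markers that were lower within 2-fold, such as *Pep1* (GRMZM5G899080) with a ratio of 0.681. Of 3 root markers, 2 reached a mean of 1 RPKM, neither past 2-fold. The part of these marker differences in the aquaporin values was not tested.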

How the data were processed

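Total RNA of 2 wild-type and 2 *lbl1* samples was sequenced. Per the paper's methods and the labels, the authors mapped trimmed reads with TopHat (version 1.2.0) to B73 RefGen_v2 and its exon junctions. From uniquely mapped reads, Cuffdiff (version 1.0.3) gave the RPKM that the authors deposited, 1 value per gene and genotype over both samples. Reads shared by near-identical copies are lost in this way, and how far this lowers a member was not tested. The table also holds the authors' fold change, test statistic, p-value and q-value, which were not used. Small RNA samples were not analysed here.

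Ratios were taken without a pseudocount. A gene listed at 0 in 1 genotype counted as past 2-fold but was given no fold. Percentiles for genes of like level were taken from genes above 0 in both genotypes. Locus starts were read as counted from 0, so 1 was added. Depth could not be recovered from RPKM that pool samples and depend on length. All members with a mean of at least 1 RPKM were named with values, and in other lists at most 6 genes past 2-fold. Genes mentioned beyond this were picked after their values were seen. Names came from the table and, for the other lists and synonyms, from a RefSeq annotation of NAM-5.0. In it, 27 of the 29 members matched, and no further gene of the table carried an aquaporin name of the forms searched. Only 19317 identifiers were matched there, and descriptions were not searched, so further aquaporin genes may have been missed. No coordinates of that assembly were used, and no sequences. The members, lists and criteria were chosen with earlier results of these data known. The calculation was run on simulated data with known 4-fold changes and little noise, which checks its arithmetic and not how reliable a call is. Alternatives varied the fold, filter, pseudocount, scaling and loci. Python 3.11.15, numpy 2.4.6, pandas 2.3.3 and matplotlib 3.10.9 were used.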

Additional observations from a re-analysis of the deposited data

How the results depend on the processing

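No paired analysis was possible because the table holds 1 RPKM value per genotype, and for the same reason no sample could be left out. The number of aquaporin genes past 2-fold higher in *lbl1*, 6, was 2 with a mean of at least 5 RPKM or with 1 RPKM in both genotypes (a filter chosen after seeing the data), where *PIP2-6* and *NIP3-1* remained, 3 at 4-fold, 4 with a pseudocount of 1 RPKM, and 4 without overlapping loci, which leaves out *NIP3-1* and *TIP3-1*. The number past 2-fold lower, 1, was 3 at 1.5-fold, with *PIP1-2* and *TIP4-2* added, and 0 at 4-fold. The median log2 ratio of the PIP1 genes, −0.37, was 0.0207 with no filter on low values. That of the TIP genes, 1.44, was 0.83 with a pseudocount of 1 RPKM, 2.15 without chromosome 6, 0.89 without overlapping loci, −0.91 with a mean of at least 5 RPKM (*TIP4-2* alone) and −0.28 with 1 RPKM in both genotypes. That of the NIP genes, 1.49, was −0.26 with no filter, 0.91 with a pseudocount, 0.0874 with either stricter filter and 0.0914 without overlapping loci, which leaves out *NIP3-1*. With a pseudocount, the log2 ratios of *NIP2-3* and *TIP2-3* were 0.91 and 0.83, under 2-fold. The PIP2 and SIP medians kept their sign in all alternatives run, and neither scaling changed a call or a sign.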

Other observations

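*PIP2-1* and *PIP2-6* lie 115146 bases apart on chromosome 7, and the 6 annotated genes between them were all below 1 RPKM in mean. The neighbours had ratios of *lbl1* to wild type of 1.16 and 8.54. *NIP1-1* exceeded *NIP3-1* 1.48-fold in *lbl1* and 10.4-fold in wild type. Of the 12 aquaporin genes with a mean below 1 RPKM, 4 were listed at 0 in both genotypes, 4 at 0 in 1 genotype and 4 above 0 in both. The loci of 9 aquaporin genes overlap that of another gene, among them *PIP2-5*, *TIP2-2* and *TIP3-2*, listed at 0 in both genotypes. How far such overlap affects the listed values was not tested.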
